A study of Mus musculus with 6 samples.

Results

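The sequences compared here are productive rearrangements of the mouse immunoglobulin heavy chain (Igh) locus whose CDR3 lies at either end of the length range. A sequence was productive where the deposited flag says so, meaning that it can encode a heavy chain. Members were chosen by CDR3 length alone: a sequence was called long when the deposited CDR3 had 51 bases (17 residues) or more, and short when it had 27 bases (9 residues) or fewer. Of 167455 productive sequences, 8660 were long, 12000 were short and 146795, called middle below, lay between these limits. So length itself, and the V, N, D and J bases that add up to it, are described without a test.

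The study read V, D and J joins from genomic DNA with VDJ-seq, taking B cells from the spleens of 12 week old C57BL/6 mice, which were enriched by depleting other cells with 4 biotinylated antibodies on magnetic columns. The 6 libraries were each the only one of their group: 500 ng, 1 µg, 2.5 µg and 5 µg of DNA, and a pair named Q5_vent and Q5_Q5 after their DNA polymerases, whose DNA amount the labels do not give. The labels name neither sex nor animal, so the libraries may share animals or DNA, and the spread between libraries may be technical. The p-values below come from fits that weight each library by its counting error and share the spread across features. For V families that spread was the same for all 12, at 0.955 times the counting error. Small p-values therefore rest largely on the number of sequences or, for amino acids, of residues. They do not measure a feature's own spread between libraries. The files hold Igh joins from DNA alone, and the B cell identity could not be checked against marker genes.

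A heavy chain CDR3 is the loop that most often sits at the centre of the antigen-binding site. The recombinase joins a D gene to a J gene and then a V gene to the DJ join, nucleases trim the ends, and terminal deoxynucleotidyl transferase (TdT) adds N bases that no gene encodes. The start of the CDR3 is fixed by the last cysteine codon of the V gene and its end by the tryptophan codon of the J gene. Short CDR3s are known for joins made without TdT and for B-1 cells, and long CDR3s are known to become rarer as B cells mature.

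The genes that enter these joins differ in the number of bases they bring. The 4 J genes are shown first because their lengths order the J results. Each line is the most frequent J end at the 99th percentile of J length inside the CDR3, read from the deposited productive sequences, with bases beyond the last 14 in capitals.
Ighj1: CTACTggtacttcgatgtc
Ighj2: actactttgactac
Ighj3: cctggtttgcttac
Ighj4: ATTACTatgctatggactac
Ighj1 and Ighj4 could give 19 and 20 bases, against 14 for both Ighj2 and Ighj3. In the RefSeq annotation of GRCm38.p6 the J segments lie on chromosome 12, from Ighj4 at 113428514 to 113428567 to Ighj1 at 113429781 to 113429833. Of the D genes, Ighd1-1 of the DFL16 family could give 22 bases and Ighd4-1, also called DQ52, could give 11.
Ighd1-1: ttattactacggtagtagctac
Ighd4-1: ctaactgggac
V genes differed as well, and the following V ends bear on the V gene results. They are the most frequent V-derived bases at the 95th percentile of V length inside the CDR3, with bases after the sixth in capitals.
Ighv1-62-2: gcaagaCACGAAGA
Ighv7-1: gcaagaGATGCA
Ighv8-8: gctcgaATAG
Ighv1-26: gcaaga
Ighv14-4: actaca
Ighv6-3: acagg

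Whole CDR3s of the most frequent clones show the 2 classes side by side. Sequences that share all CDR3 bases and both the V and the J gene form a clone here, and the 3 long and 3 short clones with most sequences are given, with the bases aligned to a D gene in capitals.
Ighv1-39 with Ighj4, long: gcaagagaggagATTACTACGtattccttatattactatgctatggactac
Ighv1-9 with Ighj4, long: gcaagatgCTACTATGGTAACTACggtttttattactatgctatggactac
Ighv10-3 with Ighj2, long: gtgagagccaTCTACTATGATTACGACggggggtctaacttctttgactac
Ighv14-2 with Ighj2, short: gctagatcaggaGATTACGACttctac
Ighv6-3 with Ighj3, short: attgaccctccctggtttgcttac
Ighv6-6 with Ighj3, short: accaggaggGATGGaccgtttgcttac
The long clones had 51 bases and 7 sequences each, from 3 libraries. The short clones had 27, 24 and 27 bases, with 14, 11 and 10 sequences from 5, 4 and 3 libraries. The Ighv6-3 clone had no D call.

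Long CDR3s made up 5.18% ± 0.088 (SD, n = 6 libraries) of productive sequences, and the libraries, in the order 500 ng to 5 µg, Q5_vent and Q5_Q5, gave 5.09%, 5.18%, 5.07%, 5.20%, 5.22% and 5.31%. Short CDR3s made up 7.15% ± 0.241, with 6.82%, 7.51%, 6.96%, 7.24%, 7.24% and 7.11% in the same order. Short CDR3s outnumbered long ones in every library, but not once sequences with an unclear primer tag, described below, were left out (5.65% long and 5.64% short). At 500 ng, with 322 long and 432 short sequences, the Wilson 95% interval was 4.57% to 5.65% for long and 6.23% to 7.47% for short. At 5 µg, with 4280 and 5956 sequences, it was 5.05% to 5.35% and 7.06% to 7.41%. Intervals cover counting error only. The mean length was 53.1 bases in long and 26.5 bases in short CDR3s. Just inside the limits there were 4993 sequences of 51 bases and 10481 of 27 bases, and just outside there were 9989 of 48 bases and 18127 of 30 bases.

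**Figure D1:**
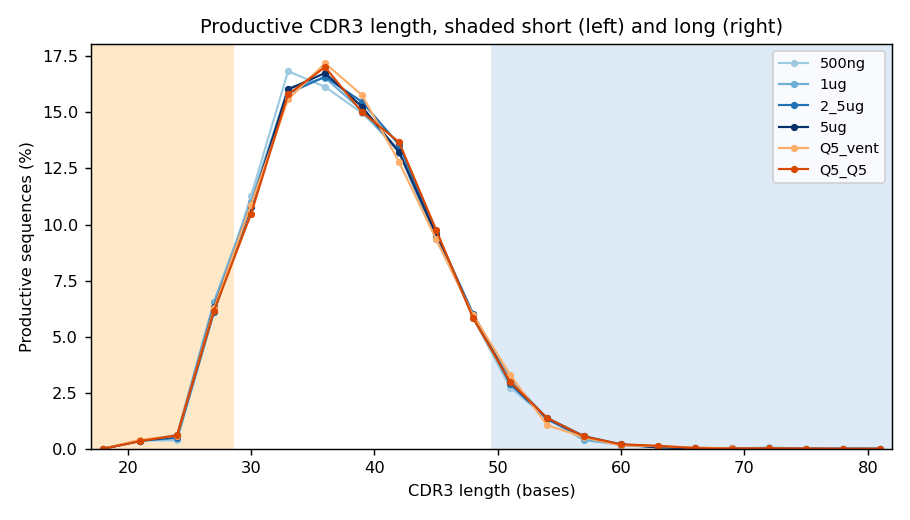
Productive CDR3 length in bases (horizontal axis) against the percentage of a library's productive sequences (vertical axis), 1 line per library, with the short and long classes shaded. The 6 lines follow each other closely, the peak lies at 36 bases in 5 libraries and at 33 in that of 500 ng, and 24 bases or fewer are rare next to 27.

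The lower end of the distribution broke off at a length that depended on the V family. Among productive sequences there were 10481 CDR3s of 27 bases but 907 of 24, 610 of 21 and 2 of 18. Ighv6 held 848 productive CDR3s of 24 bases or fewer, Ighv10 held 404, Ighv7 83, Ighv8 67 and Ighv13 65. Ighv1, with 103362 productive sequences, held 27. Ighv2 had 1 CDR3 of 27 bases and 612 of 30.

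These breaks followed the deposited junction column. Its shortest entry was 7 bases in each of the 6 libraries, with 0 shorter ones. The germline position at which the CDR3 starts, plus the CDR3 length, minus the junction length, equalled 307 in 99.86% to 99.99% of sequences of a library. The start lay at germline position 286 in Ighv2, at 289 in Ighv1, Ighv5 and Ighv14, at 292 in Ighv8 and at 295 in Ighv6, Ighv7, Ighv10 and Ighv13. The shortest CDR3 that a 7-base junction allows therefore differs between families, and out-of-frame joins broke off at the same places: Ighv2 had 1 such join of 25 or 26 bases and 537 of 28 or 29, whereas Ighv1 had 1363 and 1810. The sources used here do not say which step set the minimum. Because this lower limit bears on which V genes could appear among short CDR3s, each V result is also given against a second lower class of 28 to 33 bases, which was chosen after the break had been seen.

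At the upper end, some long CDR3s began further upstream in the V gene than their family does. There were 206 productive sequences with 15 or more V bases inside the CDR3, with a median of 30, and 205 of them were long, or 2.37% of long CDR3s. Ighv1-87 gave 133 of them: its CDR3 began at germline position 262, 27 bases before the 289 of its family, in 99.01% of its sequences. Ighv1-64 gave 30 and Ighv1-4 gave 26. One Ighv1-87 CDR3 with Ighj3 is shown with its first 27 bases in capitals.
Ighv1-87 with Ighj3, long: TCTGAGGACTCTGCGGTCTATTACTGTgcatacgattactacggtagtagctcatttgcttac
Of these 205 long CDR3s, 4 would still be long with 27 fewer bases. They also made up 148 of the 557 productive CDR3s of 60 bases or more. Among out-of-frame joins, 875 of the long ones, or 27.5%, began upstream. The fits below and some of the other results are therefore also given with upstream starts left out, an alternative added after the data were seen.

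D genes supplied the largest part of the difference in length. Long CDR3s held on average 7.26 V bases, 7.74 N bases between V and D (N1), 16.7 D bases, 4.99 N bases between D and J (N2) and 16.4 J bases. Short CDR3s held 5.33 V, 3.71 N1, 5.45 D, 1.46 N2 and 10.5 J bases. The SD of these means over the 6 libraries was at most 0.319 bases. Of the mean difference of 26.7 bases, D bases made up 11.3 (42.3%), N bases 7.55 (28.3%), J bases 5.92 (22.2%) and V bases 1.93 (7.24%). Among sequences with a D call, D bases made up 34.6% and N bases 31.4% of the difference. Middle CDR3s lay between the classes for each of the 5 sources, with 6.02 V, 4.497 N1, 10.9 D, 2.998 N2 and 13.6 J bases.

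**Figure D2:**
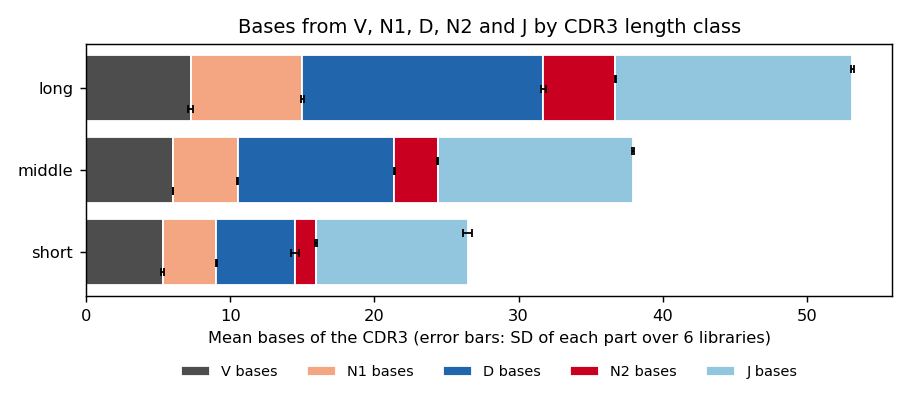
Mean bases from V, N1, D, N2 and J (horizontal axis, bases) in short, middle and long productive CDR3s, stacked in the order in which they lie in the CDR3. Each bar is the mean of 6 libraries and each error bar the SD of that source over the libraries. The D block widens most from short (5.45 bases) to long (16.7 bases).

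The N bases also differed within joins of the same J gene and D family, where germline lengths are the same. With Ighj4 and DFL16, long CDR3s held 11.5 ± 0.262 N bases (SD, n = 6) and short ones 3.33 ± 0.362. With Ighj2 and DSP2, the values were 17.3 ± 0.994 and 4.51 ± 0.340. Among sequences with a D call, joins without any N base were 4.99% ± 0.769 of short CDR3s, 1.32% ± 0.037 of middle ones and 0.0383% ± 0.0529 of long ones. The lowest library gave 4.02% of short CDR3s and the highest gave 0.135% of long ones, so the ranges did not overlap. In out-of-frame joins with a D call, the shares were 5.76% ± 1.09 for short and 0.208% ± 0.181 for long.

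The J gene separated the classes in every library. Ighj4 was used by 45.0% to 47.1% of long CDR3s (median 45.8%) and 11.8% to 17.1% of short ones (median 15.1%). Ighj1 was used by 29.6% to 35.1% of long (median 33.2%) and 5.13% to 7.06% of short (median 6.09%). The J genes with the shorter germline ends had the opposite pattern. Ighj2 was used by 11.2% to 15.2% of long (median 12.0%) and 46.5% to 54.1% of short (median 48.6%), and Ighj3 by 7.14% to 9.63% of long (median 8.43%) and 28.2% to 31.6% of short (median 29.6%). The ranges of long and short did not overlap for any of the 4 J genes, and the middle class lay between them. Within 1 J gene, long CDR3s also kept more of it: 17.7 against 13.5 bases for Ighj4 and 12.8 against 9.52 for Ighj2.

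Primer reading moved with these shares. Sequence names carry a tag for the J primer, and it was marked unclear in 28.3% ± 4.68 of short CDR3s, 8.15% ± 1.34 of middle and 0.984% ± 0.215 of long ones. Among short CDR3s it was unclear in 40.5% of those called Ighj2, 26.1% of Ighj3 and 3.53% of Ighj4. Without such sequences the long-minus-short difference was 26.4 points for Ighj4 in place of 31.2, and -28.9 points for Ighj2 in place of -37.0. What part the tags have in the J shares was not tested beyond this.

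Among D families, DFL16 marked the long class. It was called in 66.4% to 73.2% of long CDR3s (median 70.2%) and 18.2% to 21.8% of short ones (median 20.2%). DSP2, the family with most members, was called in 24.7% to 30.7% of long and 26.4% to 29.2% of short, so its ranges overlapped, while its middle share was higher, at 40.5% to 41.6%. DQ52, the J-proximal and shortest of the common D genes, was called in 0.621% to 1.01% of long and 12.2% to 14.95% of short. DST4 was called in 1.19% to 2.33% of long and 7.64% to 9.95% of short. No D gene was called in 27.1% to 31.0% of short CDR3s, against 5 of 8660 long ones. A D call needs enough matching bases, so an absent call in a short CDR3 does not show that no D gene took part. Ighd6 had 6 long and 167 short sequences, and Ighd5 had 5 and 73.

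**Figure D3:**
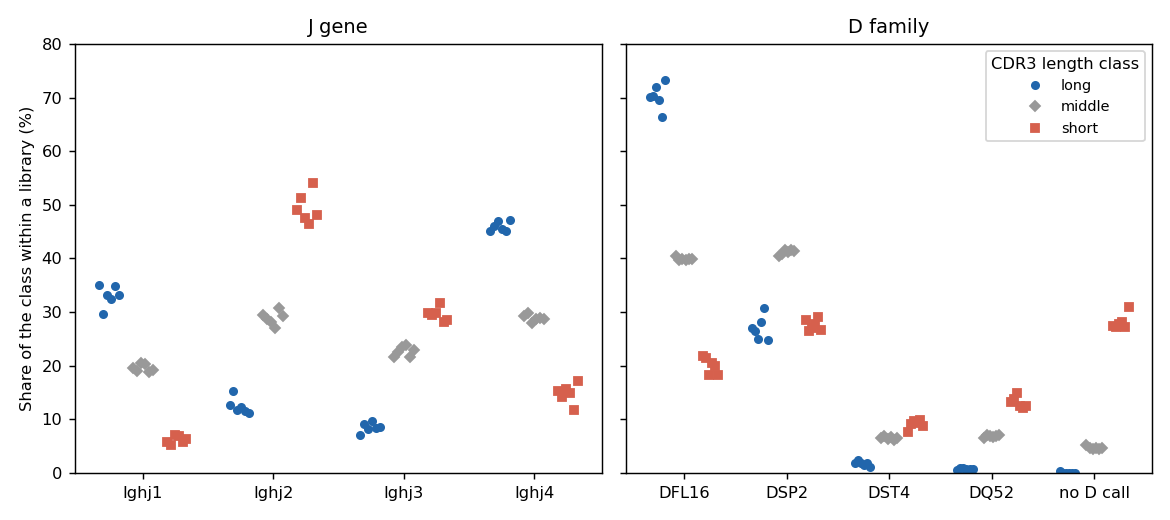
Share of each J gene (left) and D family (right) within the long, middle and short productive CDR3s of a library, in percent, 1 point per library. Long and short points do not overlap for the 4 J genes, DFL16, DST4, DQ52 and joins without a D call, and they overlap for DSP2.

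The D genes were also read in different frames. Frames are numbered here by the germline base of the D gene at which a codon starts. The third frame of DFL16 and DSP2 encodes mostly tyrosine, glycine and serine: 44.9% of whole D codons were tyrosine in DFL16 and 49.3% in DSP2. Their second frame gave mostly leucine, at 64.1% and 62.6% of whole D codons in productive joins. In the Ighd1-1 sequence shown above, that frame starts at the first base and reaches the stop codon tag. In the D bases of the Ighv10-3 clone it reaches the stop codon tga. Productive joins in that frame can therefore hold only part of such a D gene, and long CDR3s held more D bases. What part this has in the frame shares was not tested. DFL16 was read in the third frame in 75.7% ± 1.82 of long CDR3s and 59.98% ± 4.95 of short ones, and in the second frame in 1.03% ± 0.459 and 15.7% ± 2.31. DSP2 was read in the third frame in 92.1% ± 1.47 of long and 78.5% ± 0.906 of short, and in the second frame in 2.79% ± 1.44 and 15.7% ± 1.16. The middle class lay between them in the second frame, at 6.97% for DFL16 and 9.82% for DSP2. The ranges over the libraries did not overlap for these 4 shares. The hydrophobic first frame of DFL16 was similar in long and short, at 23.3% ± 1.44 and 24.4% ± 3.31. For DQ52, pooled over libraries, the second frame was 15.5% of long, 22.7% of middle and 24.2% of short CDR3s, with only 71 long sequences and 0% to 50% of them over single libraries.

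V genes contribute few bases to the CDR3 and were tested. Those bases are still part of the length that chose the members. Calls of genes that bring many bases, such as Ighv1-62-2 with 14 at the 95th percentile, or few are therefore not independent of the length rule. For each library the share of a V gene or family among long CDR3s was divided by its share among short ones, and the 6 log2 ratios were fitted with limma, with weights from the counting variance and Benjamini-Hochberg adjustment over all tested V genes or families. Of 12 V families, 8 were called at an adjusted p under 0.05, or 66.7%, with 4 higher and 4 lower in long CDR3s (33.3% each), all in the same direction in all 6 libraries.

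The lower families were led by Ighv6. It made up 0.841% to 1.55% of long CDR3s (median 0.973%) and 10.6% to 12.6% of short ones (median 11.9%), with a log2 ratio of -3.64 ± 0.155 (SE, adjusted p = 7.11e-31). Ighv14 had a log2 ratio of -1.39 ± 0.117, Ighv13 -1.23 ± 0.307 and Ighv10 -1.13 ± 0.107. None of these 4 families overlapped between long and short over the libraries. Ighv13, here Ighv13-2 alone, had 24 long and 98 short sequences and passed the minimum mostly through the short ones. It had 0 long ones at 500 ng, in Q5_vent and in Q5_Q5. Its direction in those libraries rests on the 0.5 added to each count, so its call supports nothing. On the other side, Ighv8 made up 6.98% to 9.81% of long (median 9.21%) and 1.85% to 3.92% of short CDR3s (median 2.64%), with a log2 ratio of 1.79 ± 0.0911 (adjusted p = 5.41e-27). Ighv5 had 0.74 ± 0.0773, and Ighv1, the largest family, had 0.06 ± 0.0253 (adjusted p = 0.0395). That last call was lost without upstream starts, when 7 of 12 families were called (58.3%; 0.04 for Ighv1, adjusted p = 0.199), and also without the library of 1 µg (0.05, adjusted p = 0.077), 5 µg (0.06, adjusted p = 0.067) or Q5_Q5 (0.05, adjusted p = 0.074). Ighv2 was 4.24% to 5.81% of long CDR3s and had 1 short sequence in all, so its fitted log2 ratio of 6.76 rests on the count of 0.5 added to each class and says no more than that short Ighv2 CDR3s were next to absent.

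Against CDR3s of 28 to 33 bases, with upstream starts left out, part of this order stayed and part did not. Of 13 families, 9 were called, or 69.2%, with 4 higher (30.8%) and 5 lower (38.5%), and 6 (46.2%) had the same direction in all 6 libraries. Ighv6 stayed lower in long CDR3s (-1.70 ± 0.156) and so did Ighv14 (-1.05 ± 0.108), and Ighv8 stayed higher (1.32 ± 0.0591). The Ighv2 value fell to 0.38 ± 0.0745, and Ighv1 was -0.08 ± 0.0213 in place of 0.06. Ighv10 was 0.05 ± 0.102 (adjusted p = 0.713) and Ighv13 -0.46 ± 0.285 (adjusted p = 0.131), so neither was called. Ighv3, not called against the short class, had -0.31 ± 0.0746. Ighv11, a family known for B-1 cells, was too rare to test against the short class and had -2.38 ± 0.499 here (adjusted p = 2.31e-05). It passed the minimum through its sequences of 28 to 33 bases, as only 1.32% of its 380 productive sequences were long. Its call therefore supports nothing.

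**Figure D4:**
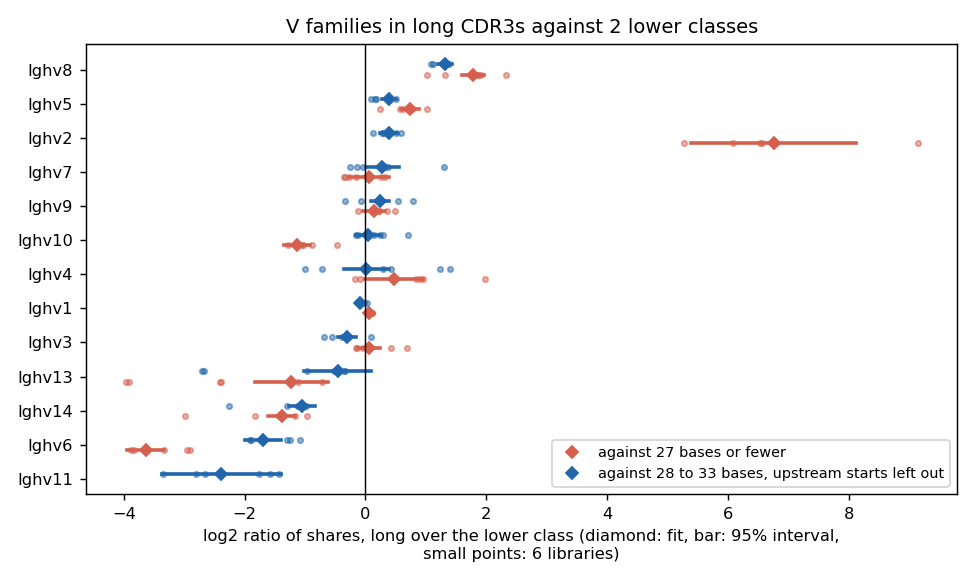
log2 ratio of V family shares, long over a lower class of productive CDR3s (horizontal axis), for the class of 27 bases or fewer and for the class of 28 to 33 bases with upstream starts left out. Diamonds are the limma fit, bars its 95% interval and small points the 6 libraries. Ighv6 and Ighv14 lie below 0 and Ighv8 and Ighv5 above it in both, whereas Ighv2 moves from 6.76 to 0.38 and Ighv10 from -1.13 to 0.05.

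Of 57 single V genes with at least 100 long and short sequences together, 31 were called, or 54.4%, with 15 higher (26.3%) and 16 lower (28.1%) in long CDR3s. Those that had the same direction in all 6 libraries numbered 18, or 31.6%. Without weights limma called 18 genes, and with a minimum of 20 sequences it called 47 of 87. Against the class of 28 to 33 bases with upstream starts left out, 36 of 75 genes were called (48%), with 16 higher (21.3%) and 20 lower (26.7%), and 19 (25.3%) had 1 direction in all 6 libraries. Of the 56 genes tested both ways, 30 were called against the short class, 21 were called in both and all 21 had the same direction.

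Ighv1-62-2 stood highest among genes whose short class was not empty. Its RefSeq V segment lies on chromosome 12 at 115446417 to 115446710, and its sequence at the start of the CDR3 runs 8 bases past the 6 that Ighv1-26 brings. It made up 3.73% to 5.59% of long CDR3s (median 5.03%) and 0.134% to 0.694% of short ones (median 0.266%), with a log2 ratio of 4.06 ± 0.259 (adjusted p = 4.45e-39). Against 28 to 33 bases the log2 ratio was 3.36 ± 0.101. All its calls name at least 1 further V gene, so the value belongs to that set of near-identical genes. Of its 2134 productive sequences, 20.3% were long, against 4.30% of the 9932 of Ighv1-26.

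Ighv8-8 and Ighv8-12, with 10 V bases at the 95th percentile, were also higher in long CDR3s. Ighv8-8, on chromosome 12 at 115294066 to 115294362, made up 3.73% to 6.00% of long (median 5.40%) and 0.780% to 1.902% of short CDR3s (median 1.23%), with a log2 ratio of 2.11 ± 0.129 (adjusted p = 1.83e-41), and 1.55 ± 0.0597 against 28 to 33 bases. Ighv8-12 had 1.49 ± 0.153 and 0.98 ± 0.0924. Ighv7-1, with 12 and listed in RefSeq as a V segment pseudogene, was called against 28 to 33 bases, at 1.04 ± 0.217. Among genes with 6 V bases, Ighv5-9-1 had 1.05 ± 0.239 and 0.80 ± 0.176, Ighv9-3 had 0.36 ± 0.121 and 0.38 ± 0.0839, and Ighv9-2 had 0.38 ± 0.205 (adjusted p = 0.102) and 0.59 ± 0.142. Without the library of 5 µg, Ighv9-3 was 0.19 against short CDR3s (adjusted p = 0.330). Ighv1-4 had 1.64 ± 0.224, of which 0.88 ± 0.140 was left against 28 to 33 bases without upstream starts.

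A pair of the genes called higher had no short sequence and passed the minimum through long sequences alone, so their calls follow from how CDR3 length was set and support nothing. Ighv2-2 had 147 long and 0 short ones, where the 7-base junction leaves Ighv2 CDR3s no shorter than 28 bases, 1 sequence of the family aside. Against 28 to 33 bases its log2 ratio was 0.51 ± 0.123, higher in 4 of 6 libraries. Ighv1-87 had 133 long and 0 short ones, and all 133 began upstream, so that it had 0 long sequences once these were left out. Of the 55 genes with sequences in both classes, 29 were called, 13 higher and 16 lower.

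Of the 16 genes called lower in long CDR3s, 2 were from Ighv6, 4 from Ighv14 and 6 from Ighv1, and those of Ighv6 had the lowest values. Ighv6-3, on chromosome 12 at 114391712 to 114392010, made up 0.169% to 0.930% of long (median 0.426%) and 6.94% to 8.98% of short CDR3s (median 8.18%), with a log2 ratio of -4.02 ± 0.215 (adjusted p = 1.18e-49). Against 28 to 33 bases it was -1.81 ± 0.210. Of its 3110 productive sequences, 32.5% were short. Ighv6-6 had -2.91 ± 0.218 and -1.38 ± 0.195. The long and short ranges of both genes were far apart, and those of long and 28 to 33 bases did not overlap either.

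All 4 tested Ighv14 genes were lower. Ighv14-4 had -2.17 ± 0.273 and, against 28 to 33 bases, -1.46 ± 0.219. Ighv14-1 had -1.31 ± 0.269 and -1.05 ± 0.189, Ighv14-2 had -1.22 ± 0.211 and -0.96 ± 0.157, and Ighv14-3 had -0.78 ± 0.202 and -0.65 ± 0.134. A further 3 Ighv1 genes with the common 6 V bases were lower as well, at -0.91 ± 0.194 for Ighv1-74, -0.50 ± 0.145 for Ighv1-80 and -0.45 ± 0.0824 for Ighv1-26. Without the library of 5 µg, Ighv1-74 was -0.49 (adjusted p = 0.107). Ighv10-1 and Ighv13-2 were lower against short CDR3s, at -1.69 ± 0.153 and -1.23 ± 0.307, and were not called against 28 to 33 bases, at -0.10 ± 0.151 (adjusted p = 0.612) and -0.46 ± 0.243 (adjusted p = 0.132). The limit given above for the Ighv13 family holds for Ighv13-2 as well, so its call against short CDR3s supports nothing.

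Ighv11-2, a gene known from B-1 cell receptors, had 5 long, 8 short and 235 sequences of 28 to 33 bases. Its share was 0% to 0.158% of long CDR3s without upstream starts and 0.274% to 0.694% of those of 28 to 33 bases, which did not overlap (log2 ratio -2.38 ± 0.399, adjusted p = 2.58e-04). It passed the minimum through its sequences of 28 to 33 bases, and 0 of its 5 long ones were at 500 ng, in Q5_vent or in Q5_Q5. Ighv1-47 had -1.19 ± 0.298 in the same comparison. With 12 long sequences and 188 of 28 to 33 bases, it too passed the minimum through the lower class. It had 0 long ones at 500 ng, at 1 µg and in Q5_Q5, so its call supports nothing either. Ighv12-3, the other gene known from B-1 cells, had 6 long and 1 short sequence, and Ighv5-2, the most D-proximal functional V gene, had 5 and 12, so neither was tested.

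Other heavily used genes differed less. Ighv3-6 had -0.21 ± 0.106 (adjusted p = 0.0821) against short CDR3s and -0.31 ± 0.0761 against 28 to 33 bases. Ighv1-64 had -0.06 ± 0.103 and -0.07 ± 0.0804, and Ighv1-50 had -0.26 ± 0.121 and -0.26 ± 0.127, none of which was called. Ighv1-72, the gene known from responses to the hapten NP, had -0.04 ± 0.126 (adjusted p = 0.780), with a 95% interval of -0.29 to 0.21.

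The V gene values lay in the order of the bases that each gene brings. Against 28 to 33 bases, the 51 genes with up to 6 V bases at the 95th percentile had a median log2 ratio of -0.25, with 6 called higher and 17 lower. The 18 genes with 7 or 8 had a median of 0.29, with 6 higher and 3 lower, and the 6 genes with more had 1.01, with 4 higher and 0 lower. Across these 75 genes Pearson's r was 0.595 and Spearman's rho 0.496, given as a description because V bases are part of the CDR3 length and genes share libraries. Ighv14-4, Ighv6-3 and Ighv5-9-1, all with 5 or 6 V bases, nonetheless lay at -1.46, -1.81 and 0.80.

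The amino acid make-up differed between the classes for each amino acid. Shares were taken over all residues of the class in a library, 153342 residues in long and 105867 in short CDR3s. All 20 amino acids were called (100%), 10 higher and 10 lower in long CDR3s (50% each), and 18 (90%) had the same direction in all 6 libraries. In percentage points, tyrosine, serine and valine gained most and alanine, phenylalanine, arginine and aspartate lost most.

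Tyrosine, the most frequent CDR3 residue and a common antigen contact, made up 23.5% to 24.01% of long CDR3 residues (median 23.7%) and 17.9% to 19.0% of short ones (median 18.5%). The log2 ratio was 0.38 ± 0.013 (adjusted p = 5.71e-50). Serine made up 8.45% to 8.99% of long (median 8.71%) and 4.32% to 4.98% of short (median 4.70%), a log2 ratio of 0.90 ± 0.0243. Valine had 0.78 ± 0.0305, and isoleucine, rare in both at 2.07% and 0.7997%, had the highest log2 ratio, 1.28 ± 0.0557. Histidine had 0.70 ± 0.0624, methionine 0.61 ± 0.0397, glutamate 0.40 ± 0.0408, lysine 0.35 ± 0.0726 and proline 0.33 ± 0.04. The ranges of these 9 amino acids did not overlap between classes. Of all 20 amino acids, the ranges of 9 lay higher in long CDR3s, those of 6 lay lower and those of 5 overlapped.

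Phenylalanine is encoded near the end of the CDR3 by Ighj1, Ighj2 and Ighj3 but not by Ighj4. It made up 4.01% to 4.18% of long residues (median 4.08%) and 6.99% to 7.88% of short ones (median 7.10%), a log2 ratio of -0.81 ± 0.025. Leucine had -0.74 ± 0.0358, alanine -0.46 ± 0.0166, glutamine -0.40 ± 0.0865, arginine -0.40 ± 0.0196, asparagine -0.37 ± 0.0457, threonine -0.37 ± 0.0298, aspartate -0.34 ± 0.018, glycine -0.14 ± 0.0186 and tryptophan -0.11 ± 0.0368. Tryptophan was -0.08 without the library of 2.5 µg (adjusted p = 0.0702). Glycine was 0.01 without unclear primer tags (adjusted p = 0.507) and 0.06 within each J gene (adjusted p = 0.00634). The ranges of glutamine, threonine, glycine and tryptophan overlapped between the classes over the libraries.

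Cysteine was higher in long CDR3s at 1.02 ± 0.143 in log2 ratio, with 0.258% against 0.146% of residues. Upstream starts carry the conserved V cysteine codon inside the deposited CDR3. Without them the log2 ratio was -0.14 ± 0.162 (adjusted p = 0.390), and the share of long CDR3s with a cysteine was 1.964% ± 0.241 in place of 4.19% ± 0.233, against 1.23% ± 0.406 of short ones. The other 19 amino acids (95%) kept their direction and their call without upstream starts.

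**Figure D5:**
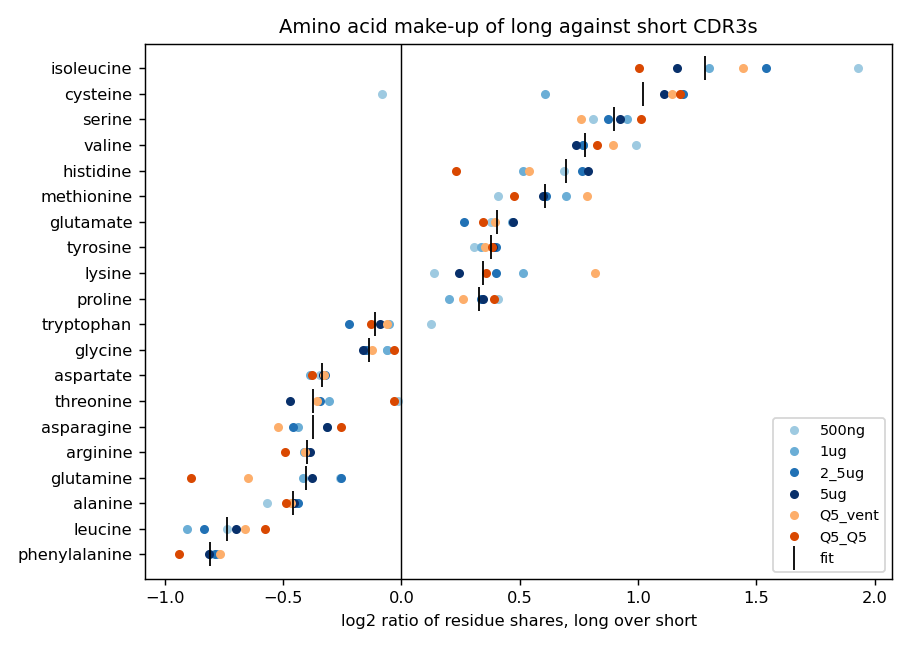
log2 ratio of residue shares, long over short productive CDR3s (horizontal axis), for 20 amino acids, 1 point per library and a vertical tick for the limma fit. Serine, valine and tyrosine lie above 0 and leucine, alanine and phenylalanine below it in all 6 libraries, while cysteine at 500 ng lies at -0.08 and tryptophan at 500 ng at 0.13.

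A short CDR3 consists to a larger part of its germline ends. With the first 2 and last 5 residues of each CDR3 left out, 92722 residues remained in long and 21869 in short CDR3s. Tyrosine was 24.8% ± 0.355 of the remaining long residues and 9.85% ± 0.935 of the short ones, a wider gap than over whole CDR3s. Ighj1 and Ighj4 can give 19 and 20 bases, more than the last 5 residues cover. Part of their germline ends could therefore stay in, and what part this has in these shares was not tested. Glycine was 14.7% ± 0.321 and 24.4% ± 0.790, tryptophan 0.827% ± 0.0539 and 4.23% ± 0.502, leucine 3.17% ± 0.160 and 6.50% ± 0.983, and serine 13.7% ± 0.303 and 9.53% ± 0.614. None of these 5 overlapped. Of all 20 amino acids, the ranges of 7 lay higher in long CDR3s, those of 9 lay lower and those of 4 overlapped. The direction turned for 6 amino acids: glutamate was -0.52, lysine -0.41 and methionine -0.64 in log2 ratio, and alanine was 0.24, phenylalanine 0.38 and threonine 0.19.

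Per CDR3, long ones were on balance more negatively charged. Net charge is a sum over residues, so it also depends on length. As shares of residues, aspartate (9.21% against 11.7%) and arginine (7.58% against 10.1%) were lower in long than in short CDR3s. Glutamate (2.46% against 1.87%) and lysine (0.773% against 0.582%) were higher. Counting arginine and lysine as positive and aspartate and glutamate as negative, the mean net charge was -0.587 ± 0.0574 in long, -0.342 ± 0.005 in middle and -0.254 ± 0.0403 in short CDR3s. A net negative charge was found in 49.0% ± 1.86 of long and 39.1% ± 1.89 of short CDR3s, and a net positive charge in 20.4% ± 0.816 and 22.0% ± 1.30. The lowest and highest libraries gave 46.6% and 52.0% negative in long and 37.0% and 42.4% in short, which did not overlap, whereas the positive shares overlapped. Mean hydropathy per residue was -0.629 ± 0.0234 in long, -0.691 ± 0.0044 in middle and -0.671 ± 0.0279 in short CDR3s. The middle class was thus the lowest, and the long and short ranges overlapped. Long CDR3s held 4.21 ± 0.025 tyrosines each, middle ones 2.67 ± 0.009 and short ones 1.63 ± 0.037. A run of 4 or more tyrosines was found in 0.722% ± 0.196 of long and 0.0465% ± 0.0529 of short CDR3s. These properties were described without a test and with upstream starts included.

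Out-of-frame joins give no chain and served as a background that productive sequences were set against. With the same limits in bases, long CDR3s made up 6.18% ± 0.322 of out-of-frame joins, with 5.77% to 6.49% over the libraries, above the productive range of 5.07% to 5.31%. Short ones made up 6.48% ± 0.256 (6.06% to 6.72%), below the productive range of 6.82% to 7.51%. Leaving out upstream starts turned the order of the long shares: long out-of-frame joins were then 4.54% ± 0.297 (4.12% to 4.93%), below the productive 5.07% ± 0.0964 (4.95% to 5.21%), while the short shares kept their order at 6.59% ± 0.259 and 7.16% ± 0.241. Upstream starts were 27.8% ± 1.86 of long out-of-frame joins and 2.28% ± 0.236 of long productive ones. Out-of-frame joins can have any length that is no multiple of 3, so the classes hold different lengths, and these shares are descriptions. The log2 ratio of long over short was then compared between both kinds of join, as productive minus out-of-frame in the same library.

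For D families, joins without a D call had the lowest value. Of 5 tested families 4 were called (80%), 1 higher (20%) and 3 lower (60%). No D call had a value of -3.53 ± 0.513 (adjusted p = 1.66e-06) and DQ52 of -1.48 ± 0.239, both lower in 6 of 6 libraries. For DQ52, the shortfall among long CDR3s was deeper in productive joins as long as upstream starts were included. The no D call fit passed the minimum through short sequences and had next to no long ones. In Q5_vent, all 739 long productive and all 255 long out-of-frame joins had a D call. The value of that library rests on the 0.5 added to each count, so the no D call fits support nothing. DST4 had -0.48 ± 0.207 (adjusted p = 0.0378) and DFL16 0.29 ± 0.0601. The DST4 call was lost without the library of 500 ng (-0.44, adjusted p = 0.0655), 5 µg (-0.25, adjusted p = 0.458) or Q5_Q5 (-0.44, adjusted p = 0.0744). Without upstream starts, when 3 of 5 were called (60%), no D call was -2.63 ± 0.454 and stayed called, DQ52 was -0.53 ± 0.319 (adjusted p = 0.166) and DST4 0.28 ± 0.226 (adjusted p = 0.251), neither called. With the class of 28 to 33 bases as well, no D call was the only call of 6 (16.7%), at -2.48 ± 0.556 (adjusted p = 0.007).

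For J genes, 3 of 4 were called lower (75%): Ighj2 at -0.61 ± 0.0711, Ighj3 at -0.46 ± 0.0731 and Ighj4 at -0.44 ± 0.0926, with Ighj1 at -0.19 ± 0.115 (adjusted p = 0.1204). Ratios of shares can fall together, since the short shares of both kinds of join differ too. Without upstream starts, Ighj4 was -0.64 ± 0.0961 and stayed called, Ighj1 was -0.35 ± 0.134 and Ighj2 -0.24 ± 0.0956, and Ighj3 was 0.05 ± 0.112 (adjusted p = 0.650). Against 28 to 33 bases and without upstream starts, Ighj4 was -0.77 ± 0.0595 and Ighj1 -0.46 ± 0.0752, both lower in 6 of 6 libraries, while Ighj2 and Ighj3 were not called (50% called).

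For V genes, 11 had enough sequences in both kinds of join and 8 were called (72.7%), 5 higher (45.5%) and 3 lower (27.3%). The count was 4 without the library of 500 ng and 5 without Q5_Q5, and it was 3 without weights, 3 without upstream starts and 3 without unclear primer tags. Those with 1 direction in all 6 libraries were Ighv8-8 at 1.79 ± 0.213, Ighv1-87 at -1.75 ± 0.363 and Ighv1-64 at -1.39 ± 0.143. None of these 3 held: against 28 to 33 bases and without upstream starts, Ighv8-8 was -0.14 ± 0.233 (adjusted p = 0.830) and Ighv1-64 0.17 ± 0.289 (adjusted p = 0.839), and Ighv1-87 had no long sequence left. In that comparison 6 of 37 genes were called (16.2%), 3 in each direction (8.11%), and 2 of them in the same direction in all libraries (5.41%). Ighv2-2 was higher in 6 of 6 libraries, at 0.88 ± 0.204 (adjusted p = 4.46e-04), and Ighv11-2 lower in 6 of 6, at -2.68 ± 0.571 (adjusted p = 1.960e-04). Ighv11-2 had 5 long productive sequences, 0 of them at 500 ng, in Q5_vent or in Q5_Q5, and 22 long out-of-frame ones. Its direction in those libraries rests on the 0.5 added to each count, so its call supports nothing.

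Other properties of the sequences also differed between the classes. The V alignment averaged 173 ± 3.13 bases in long and 188 ± 3.91 in short CDR3s, and calls naming several V genes were 17.4% ± 1.44 of long and 8.53% ± 1.22 of short. Reads per sequence, taken from the number in the sequence name, averaged 11.2 ± 2.54 and 10.4 ± 2.304, and V genes with any mismatch were 7.15% ± 1.79 and 7.10% ± 1.91. The part of V call ambiguity in the V results was not tested beyond the fit on calls naming a single gene.

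Short clones recurred across libraries more often than long ones. Of 11634 short clones, 136 (1.17%, Wilson 95% interval 0.989% to 1.38%) were in at least 2 libraries, against 48 of 8514 long clones (0.564%, 0.426% to 0.747%) and 1017 of 143375 middle clones (0.709%, 0.667% to 0.754%). The interval of the short class did not overlap the other 2. These shares count clones pooled over libraries of unequal depth that may share DNA. In a single library, 1.47% to 3.61% of long and short clones were also found in another library.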

How the data were processed

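The deposited tables hold 1 row per VDJ sequence, and all 6 libraries, with 8704 to 112320 sequences each (6332 to 82314 productive), were used. Reads were processed with Trim Galore 0.4.4 and Bowtie2 2.3.2 on mm10, per the submitters' processing notes. V, D and J calls, CDR3 and junction strings and segment lengths in bases are those of the authors, as deposited, and the V identity is a deposited fraction. For the program that called the genes, the sources used here give no version.

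From these tables, shares were computed within each library and class. Log2 ratios of shares, with 0.5 added to each count, were fitted over the 6 libraries with limma 3.58.1 (R 4.3.3), weighted by the inverse counting variance, for V genes with at least 100 sequences, V families and amino acids, and for the difference between productive and out-of-frame joins. Calls had a Benjamini-Hochberg adjusted p under 0.05 over all features of that fit. The fit was also run on simulated counts that had no spread between libraries. Such a run cannot show how the fit does on libraries with their own spread. Plots were drawn with matplotlib 3.10.9, and tables were made in Python 3.11.15 with SciPy 1.17.1, NumPy 2.4.6 and pandas 2.3.3.

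Each group has 1 library, so the libraries served as repeats of the same comparison between classes and groups were not compared. Where no sequence was counted, the share can be as high as 3 counts of the class, which is 0.0504% to 0.694% of short and 0.0701% to 0.932% of long sequences of a library. Wilson intervals and these limits cover counting error only. Of 160 V gene names 128 were in the RefSeq table (28 of the 29 named here).

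Members and gene lists were chosen with earlier results of these data known. Named were all J genes, D families, V families and amino acids tested, up to 10 V genes in each direction with the largest mean log2 ratio among those called with 1 direction in all 6 libraries, the 5 most used V genes, and Ighv5-2, Ighv11-2, Ighv12-3 and Ighv1-72. Genes taken by the same rule from the class of 28 to 33 bases, and that class itself, were added after seeing the data. Alternatives were other length limits, other minimum counts, no weights, an exact sign-flip test, 1 count per clone, single V or D calls, sequences with a clear primer tag, residues within each J gene or without the CDR3 ends, and each library left out in turn.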

Additional observations from a re-analysis of the deposited data

Results flagged for a closer look

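Among the called results for V families, amino acids, J genes and D families, 4 had 1 library on the other side of 0 from the rest of its series. Results that were not called, and single V genes, were not screened in this way. These are differences between groups of 1 library each, and they were not tested. The log2 ratio of cysteine, long over short, was -0.0801 in the library of 500 ng, against positive values at 1, 2.5 and 5 µg. That of tryptophan was 0.13 in the library of 500 ng, against negative values in the other libraries of the input series. The productive minus out-of-frame value of Ighj4 was 0.22 in Q5_vent and negative in Q5_Q5. That of DST4 was 0.0788 in the library of 1 µg and negative in the other libraries of the input series. The library of 500 ng was the smallest, with 322 long and 432 short sequences.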

How the results depend on the processing

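The counts of calls against the short class were 31 V genes, 8 V families and 20 amino acids, and between productive and out-of-frame joins 8 V genes, 3 J genes and 4 D families. With at least 20 sequences there were 47 V genes and, between kinds of join, 15, and with no minimum 19 of the latter. Without weights limma called 18 and 3. The exact sign-flip test, whose smallest p over 6 libraries is 0.03125, called 0 V genes (18 of 57 unadjusted), and 0 V genes (3 of 11), 0 J genes (2 of 4) and 0 D families (3 of 5) between kinds of join, with 8 V families and 18 amino acids still called. Leaving out 1 library gave 4 to 10 V genes between kinds of join (4 without 500 ng, 5 without Q5_Q5), and all other counts stayed within 1.5 times.

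With limits of 48 and 30 bases, Ighv1 was -0.0070, V genes between kinds of join 15, DFL16 43.5 points (main 50.2), no D call -20.8 (main -28.1), Ighj1 24.9, Ighj2 -30.3, Ighj3 -17.3 and Ighj4 22.6, with differences of 9.71 D, 4.79 J, 3.28 N1, 2.71 N2 and 1.31 V bases. With limits of 54 and 24 bases, where the short class is held by few V families, V genes called were 12 and between kinds of join 1, Ighv1-26 was 3.8045, Ighv1-64 2.97, Ighv7 -1.94, alanine 0.21, proline -0.27 and valine -0.11. Shares there differed by 60.5 points for DFL16, -10.6 DQ52, 8.81 DSP2, -4.22 DST4, -0.863 Ighd5, -52.3 no D call, 23.8 Ighj1, -30.9 Ighj2, -30.2 Ighj3 and 37.4 Ighj4, and bases by 13.9 D, 6.71 J, 4.70 N1, 4.77 N2 and 3.24 V.

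Against 28 to 33 bases, Ighv1 was -0.0621, Ighv10 0.0110, Ighv3 -0.34, lysine -0.0154, threonine 0.0218 and the Ighv10-1 value between kinds of join 0.0247. Without upstream starts as well, they were Ighv1 -0.0837, Ighv10 0.0454, Ighv3 -0.31, cysteine -0.24 and threonine 0.0425, and between kinds of join Ighv1-64 0.17, Ighv8-8 -0.14, Ighj3 0.11, DFL16 -0.0214 and DST4 0.0378, with 1 D family called. Without upstream starts alone, cysteine was -0.14, Ighj3 0.0518 and DST4 0.28, with 3 V genes called between kinds of join. These 3 settings were chosen after seeing the data.

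With single D calls the differences were 57.9 points for DFL16, -34.5 DQ52, -12.8 DSP2, -8.61 DST4, -1.12 Ighd5 and -0.846 Ighd6. Without unclear primer tags, glycine was 0.0127, V genes between kinds of join 3, DFL16 54.1 points, DSP2 4.98, Ighd6 -1.80, no D call -36.8, Ighj1 24.6, Ighj2 -28.9 and Ighj4 26.4, the bases 12.5 D, 4.36 J and 3.87 N2, and the classes 5.65% long and 5.64% short. Within each J gene, glycine was 0.0647 and methionine -0.15. With the CDR3 ends left out, alanine was 0.24, glutamate -0.52, lysine -0.41, methionine -0.64, phenylalanine 0.38 and threonine 0.19. Except where the construction of the alternative shows it, the cause was not tested. Long and short were compared within each library, so the fits are already paired by library. No paired analysis was possible between groups because each has 1 library. Depth limits rare V genes most: 57 of 160 V names reached the minimum.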
